A study of Mus musculus with 14 samples.

Results

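The expression of 40 genes of DNA replication was examined in mouse intestine, intestinal tumors and a colon cancer cell line. The genes were chosen by name, as known parts of the replication machinery, with earlier results of these data known. On the array, 40 of 36161 gene names were members. Each was read from the brightest probe that carries its name. The data came from 14 one-color Agilent arrays in 5 groups: whole small intestine of wild-type C57BL/6J mice (3 arrays), intestinal tissue adjacent to adenomas of APCmin/+ mice (2), adenomas of APCmin/+ mice (3), colon labelled C57BL/6J (3) and the CT26 colorectal cell line (3). APCmin/+ mice carry a germline truncating allele of Apc, the brake on Wnt signaling, and develop adenomas along the intestine. CT26 is a carcinoma line derived from BALB/c colon and grown in culture, so it differed from the tissues in strain and in the absence of other cells. The study's methods describe the wild-type mice as adults and state no age for the APCmin/+ mice. The study's sample list places the adenoma and adjacent pieces used on arrays in 1 APCmin/+ animal, the small intestines in 3 animals, and 1 of the colon samples under an APCmin/+ animal, against its label. P-values between adenoma and adjacent tissue therefore measure the spread between pieces of 1 mouse, and adenoma and small intestine differed in animal and genotype together. In the other tests that use adenoma or adjacent arrays, the spread of those arrays is likewise within 1 mouse. It does not measure the spread between APCmin/+ mice.

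Before a cell copies its DNA, the origin recognition complex, Cdc6 and Cdt1 load the MCM helicase onto chromatin, and geminin blocks a second loading. Cdc45 and the GINS complex then switch the helicase on, polymerase alpha with its primase starts each strand, the clamp loader places the PCNA ring, and polymerases delta and epsilon extend. In the intestine these genes are normally active in the dividing cells of the crypt and low in the differentiated cells of the villus, and many are targets of E2F transcription factors.

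All 40 genes had a mean signal above the small intestine in adenoma, and 39 of 40 had a mean above the colon in CT26. Levels are given as log2 signal minus the 75th percentile of the array, and overexpressed or underexpressed genes are those whose log2 fold change reached 1.2 in either direction with an adjusted p no higher than 0.01 (limma, Benjamini-Hochberg adjustment over all probes tested). The median of the members' group means was 1.13 in small intestine, 1.59 in colon, 1.896 in adjacent tissue, 2.74 in adenoma and 4.09 in CT26. For 29 genes the 5 group means fell in that same order. CT26 had the highest mean for 38 genes and adenoma for the other two, Prim2 and Chaf1b. Small intestine had the lowest mean for 35 genes and colon for 5, which were Cdc6, Gmnn, Pcna, Rfc3 and Pola2. In whole tissue, fewer cells that express a gene and less RNA per cell cannot be told apart.

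**Figure D1:**
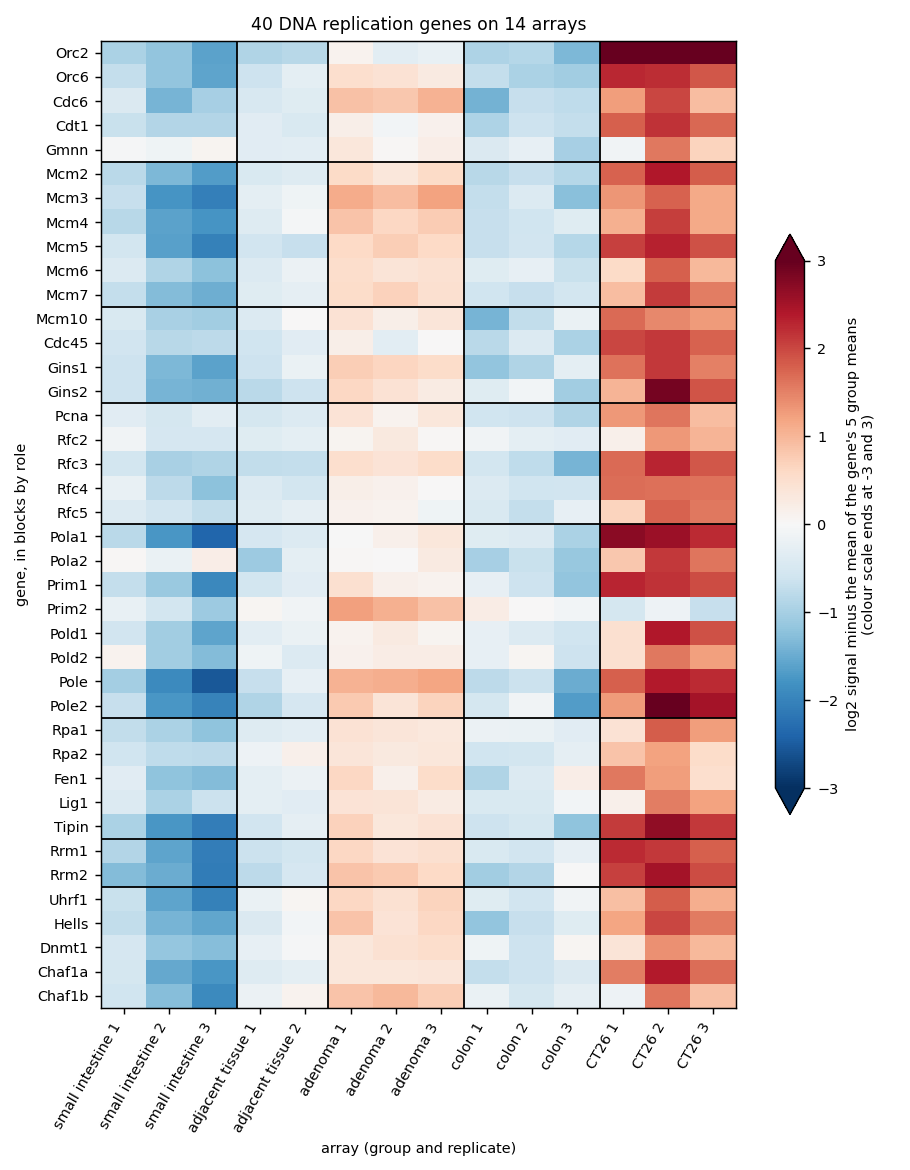
Level of each of the 40 genes (rows, in blocks by role) on each of the 14 arrays (columns, by group), as log2 signal minus the mean of the gene's 5 group means; blue is lower and red is higher, and the color scale ends at -3 and 3. The 3 CT26 columns hold most of the red, with Prim2 as the blue row among them, the adenoma columns are a paler red, and the small intestine columns are the bluest.

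Between adenoma and small intestine, 27 of 40 genes were overexpressed and 0 were underexpressed, where 11.3% of all tested gene names were overexpressed and 11.1% underexpressed. The median log2 fold change of the members was 1.53, against -0.15 over all tested gene names, and the members ranged from 0.095 for Pola2 to 2.93 for Pole. Every adenoma array lay above every small intestine array for 38 genes (27.8% of all names), the exceptions being Gmnn and Pola2. All 40 differences had the same sign within each of the 2 slides, with medians of 1.48 and 1.604. The number overexpressed rested on the arrays used, since it fell to 11 without adenoma replicate 1 or 2, to 15 without small intestine replicate 2 and to 17 without adenoma replicate 3. The share of all names overexpressed fell too, to 7.21%, 6.57%, 8.34% and 7.1% without adenoma replicate 1, adenoma replicate 2, small intestine replicate 2 and adenoma replicate 3.

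Adenoma and adjacent tissue, which came from the same animal, differed less. All 40 genes were higher in adenoma on every array than in either adjacent piece (28.4% of all names), with a median log2 fold change of 0.76 against -0.036 over all names. The 6 genes Cdc6, Mcm3, Mcm5, Rfc3, Pole and Rrm2, passed the thresholds, where 2.4% of names were overexpressed and 1.78% underexpressed, and 0 members were underexpressed. These 6 calls were lost in a fit of all 5 groups and without a filter on dim probes. They were also lost with the slide or the replicate number as a block. The share of all names overexpressed fell too, to 0.73%, 0.147%, 0.586% and 0.306% in that order. When any 1 adenoma array was left out, 0 of the 6 calls remained, and 0% to 0.203% of names were overexpressed. At an adjusted p of 0.05 with no minimum fold, 26 members passed, all of them higher in adenoma, as did 9.94% of names in that direction. On a second, dimmer probe the calls of Cdc6 (1.26, limma adjusted p = 0.0186) and Pole (0.93, limma adjusted p = 0.021) did not pass, and that of Mcm3 did.

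Adjacent tissue lay between small intestine and adenoma for 37 of 40 genes. On a scale where the small intestine mean is 0 and the adenoma mean is 1, its median position was 0.45, with quartiles of 0.36 and 0.54. The position is a description only, since the small intestine mean enters both the distance measured and the scale. Gmnn, Pcna and Pola2 were the 3 genes below the small intestine mean. In the test of adjacent tissue against small intestine, 0 members were overexpressed and 0 underexpressed (0.00924% and 0% of all names), with a smallest limma adjusted p of 0.091 for Mcm4, although the median log2 fold change was 0.71 (-0.096 over all names), 14 members had an unadjusted p under 0.05 (30.6% of names did), and both adjacent arrays lay above all 3 small intestine arrays for 26 members (21.9% of names). The count of 14 is near that background, and it ran from 1 without adjacent tissue replicate 2 to 29 without small intestine replicate 1, with 3, 7 and 7 when any other array was left out and 6 when replicate numbers were blocked. Colon and small intestine also gave 0 overexpressed and 0 underexpressed members (0.00484% and 0.00484% of names). The median there was 0.52 (-0.076 over all names), 35 members were higher in colon, 9 had an unadjusted p under 0.05 (23.9% of names did, so the members were at the background), and 8 had all colon arrays above all those of small intestine (12% of names). The count of 9 was 20 without small intestine replicate 1 and 1 without small intestine replicate 2 or 3, and it was 3, 5 and 8 without colon replicates 1, 2 and 3. Without colon replicate 3, which stands apart, 3.34% of names were overexpressed and 3.9% underexpressed, and 0 members were called in either direction.

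Between CT26 and colon, 29 of 40 genes were overexpressed and 0 underexpressed, where 21% and 16.2% of all names were called. The median log2 fold change of the members was 2.29, against 0.32 over all names, and every CT26 array lay above every colon array for 39 genes (39.4% of names). Without colon replicate 3, 29 were again overexpressed (20.1% of names), 28 of them the same genes. Between CT26 and adenoma, 16 genes were overexpressed and 1, Prim2, was underexpressed (21.9% and 20% of all names), so that the share overexpressed was closer to the background than in either tumor against its normal tissue. The median was 1.13 (0.34 over all names), and 31 genes had all CT26 arrays above all adenoma arrays (44% of names). That count of 16 fell to 8 after quantile normalization, where 18.7% of names were overexpressed, and to 6 in the authors' normalized table, where 13.9% were, so that under both the members were called at about the rate of all names.

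**Figure D2:**
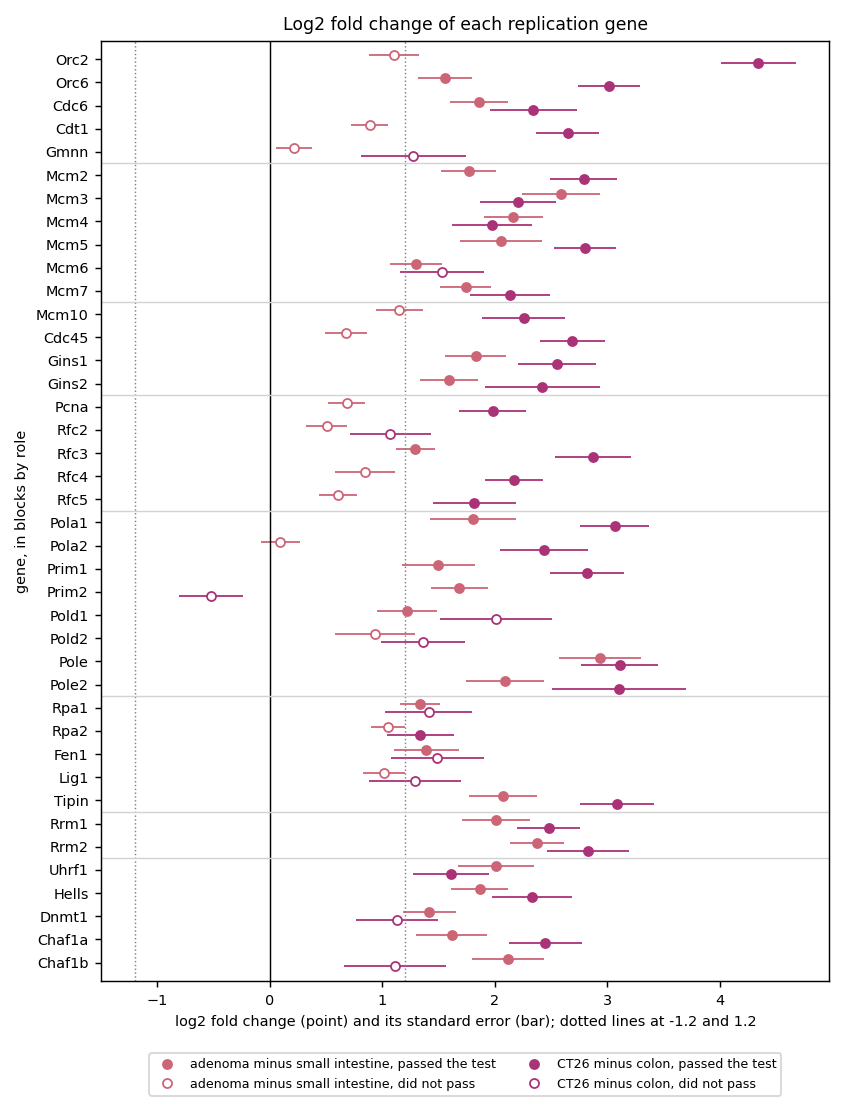
Log2 fold change of each gene (points) with its standard error (bars), in blocks by role, for adenoma minus small intestine and for CT26 minus colon; filled points passed both thresholds and open points did not. The adenoma points run from 0.095 (Pola2) to 2.93 (Pole), and the CT26 points from -0.52 (Prim2) to 4.34 (Orc2).

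Several facts about the arrays bear on these values. The share of probes well above background ran from 46.8% to 58.2% over the arrays, and all 40 members were so on every array except Pola2 on colon replicate 3. That array had a mean correlation of 0.961 with the small intestine arrays and 0.936 with the other colon arrays, and the median level of 10 small intestine enterocyte markers was 4.43 on it against -2.71 and -3.23 on the other colon arrays. CT26 lacked several epithelial markers that its colorectal label would imply: all 8 epithelial genes were underexpressed against colon, and Epcam, Cdh1 and Vil1 were well above background on 0 of 3 CT26 arrays, Cdh17 on 1 and Krt8 on 2, while Krt18, Krt20 and Cldn7 were so on all 3. Its 8 smooth muscle and 6 B cell markers were also all underexpressed against colon, so CT26 cells were set against a tissue of many cell types.

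Other gene lists moved with the replication genes between adenoma and small intestine, and their part in the result was not tested. Of 8 mitosis genes, 7 were overexpressed, with a median log2 fold change of 1.91 and a log2 summed signal of 4.61 to 5.995 in small intestine and 6.91 to 7.04 in adenoma. Of 6 crypt base genes, 4 were overexpressed (median 1.93, summed signal 4.12 to 5.16 against 6.46 to 6.52). Another of them, Olfm4, went the other way without passing, with a mean of 1.71 in small intestine and 0.96 in adenoma. Of 10 enterocyte genes, 6 were underexpressed (median -2.71, summed signal 10.6 to 11.94 against 8.43 to 9.17), and on no array of either group did any of the 10 fall to background. A further 3 fibroblast genes of 6 and 3 neutrophil and monocyte genes of 5 tested were overexpressed, and 1 smooth muscle gene of 8 and 3 T cell genes of 6 were underexpressed. Of 8 epithelial genes, 4 were underexpressed and 1 was overexpressed, with a median of -1.11. Mitosis genes were also overexpressed between CT26 and colon, 6 of 8, with a median of 2.59.

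**Figure D3:**
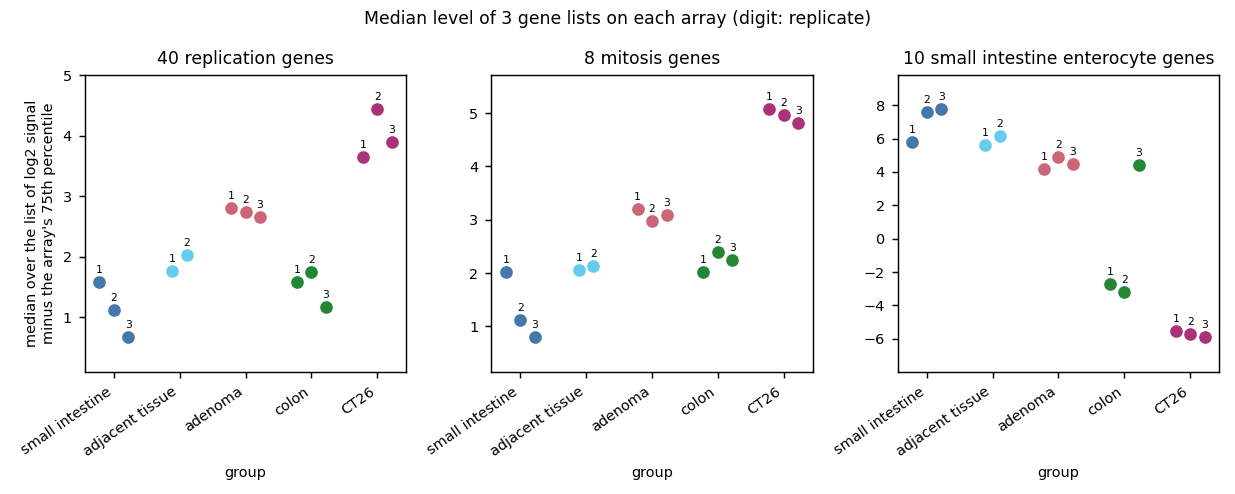
Median log2 signal, minus the 75th percentile of the array, over the 40 replication genes, 8 mitosis genes and 10 small intestine enterocyte genes on each array; each point is an array and the digit is its replicate number. The replication median was 0.67 to 1.59 in small intestine, 2.66 to 2.804 in adenoma and 3.66 to 4.45 in CT26, and colon replicate 3 lies at 4.43 in the enterocyte panel, far above the other colon arrays.

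The promoters of members that rose together are shown for their E2F sites. RefSeq promoters (GRCm38.p6, 250 bases before to 50 after each start) were available for 32 of 40 members, and both strands were searched for the E2F letters TTTCCCGC, TTTCGCGC, TTTGCCGC and TTTGGCGC, matches of which on opposite strands can overlap. A match was found in 14 of the 32 members (43.8%), against 704 of all 27025 genes in the table (2.6%). The CCAAT box was found in 21 of the 32 members (65.6%, 41.1% of all genes) and the CHR letters TTTGAA in 5 (15.6%, 20.2% of all genes). Of the 14 members with an E2F match, 7 had one wholly upstream of every start in the table. Their windows of 30 bases are given 5′ to 3′ on the strand of the gene, with E2F matches of either strand in capitals.
Cdc6, chr11:98908002-98908031, plus strand: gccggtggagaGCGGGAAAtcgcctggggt
Hells, chr19:38930917-38930946, plus strand: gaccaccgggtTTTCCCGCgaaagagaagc
Mcm5, chr8:75109349-75109378, plus strand: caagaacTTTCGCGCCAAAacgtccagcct
Mcm6, chr1:128359734-128359763, minus strand: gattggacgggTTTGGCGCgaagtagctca
Mcm7, chr5:138172030-138172059, minus strand: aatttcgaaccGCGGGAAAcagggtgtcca
Pola1, chrX:93632275-93632304, minus strand: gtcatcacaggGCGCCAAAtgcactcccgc
Rfc3, chr5:151651209-151651238, minus strand: ccggaagtgacgtcgcacgcTTTCGCGCtc

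In Mcm5, matches on both strands overlap in 1 run of capitals, and in Rfc3 the match starts 10 bases before the gene start. All 7 of these genes were overexpressed in adenoma against small intestine. Of the 14 members with a match, 12 were overexpressed in adenoma, and of the 18 without, 9 were. In CT26 against colon the counts were 10 of 14 and 14 of 18. A match describes the letters of a window and is not evidence that a factor binds there.

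The licensing genes included some of the smallest and largest changes. Against small intestine, Cdc6 and Orc6 were overexpressed in adenoma, 2 of 5, and against colon 4 of 5 were overexpressed in CT26. Cdc6, which loads the helicase, measured -1.86, -2.82 and -2.41 in small intestine, -1.91 and -1.78 in adjacent tissue, -0.53, -0.61 and -0.37 in adenoma, -2.83, -2.104 and -2.19 in colon, and -0.18, 0.59 and -0.503 in CT26. Its adenoma arrays lay above all arrays of the 3 normal tissues and overlapped CT26. The log2 fold change was 1.86 (SE 0.26, limma adjusted p = 0.00144) against small intestine, 1.34 (SE 0.16, limma adjusted p = 0.00704) against adjacent tissue and 2.34 (SE 0.38, limma adjusted p = 0.00172) for CT26 against colon. A dimmer second Cdc6 probe gave 1.88 in adenoma and 0.91 in CT26 (limma adjusted p = 0.115), so the CT26 call rests on the brighter probe, as does the call against adjacent tissue.

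Orc2, a subunit of the origin recognition complex read from a probe that spans positions 58521127 to 58522890 of chromosome 1 (mm9, minus strand), measured -2.16, -2.41 and -2.82 in small intestine, -2.12 and -2.05 in adjacent tissue, -1.11, -1.54 and -1.43 in adenoma, -2.15, -2.08 and -2.56 in colon, and 2.605, 1.87 and 1.76 in CT26. The 3 CT26 arrays stood far above every other array, and the adenomas lay above all normal arrays by a much smaller step. Orc2 had the largest change of any member in CT26 against colon, 4.34 (SE 0.34, limma adjusted p = 4.14e-05), a fold of 20.3. In adenoma its log2 fold change of 1.105 (SE 0.22, limma adjusted p = 0.00656) missed the threshold of size. Orc6, the smallest subunit of the same complex, rose by 1.56 (SE 0.24, limma adjusted p = 0.00228) in adenoma and by 3.01 (SE 0.28, limma adjusted p = 0.0001) in CT26. Cdt1, the partner of Cdc6 in loading, passed in CT26 against colon, 2.65 (SE 0.28, limma adjusted p = 0.000198), and against adenoma, 1.81 (SE 0.21, limma adjusted p = 0.000168), while its 0.89 (SE 0.16, limma adjusted p = 0.00441) in adenoma against small intestine missed the threshold of size. Geminin (Gmnn), the inhibitor of Cdt1, measured 1.14, 1.03 and 1.25 in small intestine, 0.84 and 0.86 in adjacent tissue, 1.51, 1.199 and 1.37 in adenoma, 0.74, 0.91 and 0.17 in colon, and 1.07, 2.75 and 1.83 in CT26. Its adenoma and small intestine arrays overlapped, and the CT26 arrays spread from among the normal arrays to well above them. The log2 fold change was 0.22 (SE 0.16, limma adjusted p = 0.29) in adenoma, -0.29 (SE 0.200, limma adjusted p = 0.354) in adjacent tissue against small intestine, -0.53 (SE 0.27, limma adjusted p = 0.282) in colon against small intestine and 1.28 (SE 0.47, limma adjusted p = 0.0509) in CT26 against colon, and none of these passed.

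All 6 subunits of the MCM2-7 ring, the core of the replicative helicase, were overexpressed in adenoma, by a median log2 fold change of 1.91 and a range of 1.299 to 2.59. Mcm3 measured 2.78, 1.68 and 1.42 in small intestine, 3.17 and 3.34 in adjacent tissue, 4.59, 4.39 and 4.67 in adenoma, 2.74, 3.05 and 2.22 in colon, and 4.78, 5.23 and 4.61 in CT26. Both adjacent pieces were above every small intestine array, and the adenomas were above both and overlapped CT26. Its log2 fold change was 2.59 (SE 0.35, limma adjusted p = 0.0013), a fold of 6.01, against small intestine and 1.29 (SE 0.17, limma adjusted p = 0.0084) against adjacent tissue. In CT26 it was 2.21 (SE 0.34, limma adjusted p = 0.00122) above colon, and 0.32 (SE 0.23, limma adjusted p = 0.249) against adenoma, where a second Mcm3 probe gave 1.77 and passed. Mcm6, the least changed of the ring, measured 4.54, 4.06 and 3.73 in small intestine, 4.53 and 4.77 in adjacent tissue, 5.48, 5.32 and 5.41 in adenoma, 4.58, 4.71 and 4.28 in colon, and 5.51, 6.73 and 5.91 in CT26. CT26 replicate 1 lay only just above the highest adenoma array. Mcm6 passed in adenoma, 1.299 (SE 0.23, limma adjusted p = 0.00378), and missed the threshold of p in CT26 against colon, 1.53 (SE 0.38, limma adjusted p = 0.0107).

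Mcm5 measured 2.304, 1.22 and 0.82 in small intestine, 2.29 and 2.17 in adjacent tissue, 3.46, 3.602 and 3.46 in adenoma, 2.17, 2.28 and 1.995 in colon, and 4.901, 5.17 and 4.76 in CT26. The CT26 arrays lay above the adenoma arrays, which in turn lay above all normal arrays. The rise was 2.06 (SE 0.36, limma adjusted p = 0.00381) in adenoma against small intestine, 1.27 (SE 0.15, limma adjusted p = 0.00704) against adjacent tissue and 2.797 (SE 0.28, limma adjusted p = 0.000139) in CT26 against colon, the largest of the ring there on the brightest probes. The second, dimmer Mcm3 probe gave a larger rise in CT26 against colon, 3.11 (limma adjusted p = 0.000257). The other 3 subunits rose in both tumors: Mcm2 by 1.77 in adenoma and 2.79 in CT26, Mcm4 by 2.17 and 1.97, and Mcm7 by 1.74 and 2.14. Against adenoma, CT26 passed for Mcm2, 1.501 (SE 0.24, limma adjusted p = 0.000908), and Mcm5, 1.44 (SE 0.199, limma adjusted p = 0.00045), and not for the other 4.

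The 4 genes of helicase activation were all overexpressed in CT26 against colon, by 2.26 to 2.69 on the log2 scale, and 2 of them, Gins1 and Gins2, in adenoma against small intestine. Gins1, a GINS subunit, measured -0.02, -0.76 and -1.02 in small intestine, -0.024 and 0.39 in adjacent tissue, 1.32, 1.23 and 1.14 in adenoma, -0.58, -0.32 and 0.297 in colon, and 2.21, 2.72 and 2.11 in CT26. The adenoma arrays lay close together, above all normal arrays and below all CT26 arrays. It rose by 1.83 (SE 0.27, limma adjusted p = 0.00183) in adenoma and 2.55 (SE 0.35, limma adjusted p = 0.000666) in CT26. Cdc45, the other activator of the helicase, measured -2.65, -2.900 and -2.85 in small intestine, -2.68 and -2.42 in adjacent tissue, -1.91, -2.398 and -2.06 in adenoma, -2.89, -2.48 and -3.03 in colon, and -0.071, 0.033 and -0.301 in CT26. The normal arrays were lowest and overlapped each other, the adenomas lay just above them and CT26 far above. The change was 0.68 (SE 0.19, limma adjusted p = 0.0207) in adenoma, which missed both thresholds, and 2.69 (SE 0.29, limma adjusted p = 0.000221) in CT26. Mcm10, which helps to start unwinding, measured 2.204, 1.68 and 1.604 in small intestine, 2.23 and 2.67 in adjacent tissue, 3.09, 2.83 and 3.02 in adenoma, 1.25, 1.91 and 2.44 in colon, and 4.36, 4.08 and 3.93 in CT26. The colon arrays spread from below all small intestine arrays to among the adjacent pieces. Its log2 fold change was 1.15 (SE 0.21, limma adjusted p = 0.00415) in adenoma, just short of the threshold of size, and 2.26 (SE 0.37, limma adjusted p = 0.00167) in CT26. Gins2 rose by 1.59 (SE 0.26, limma adjusted p = 0.00273) in adenoma and by 2.42 (SE 0.51, limma adjusted p = 0.00538) in CT26, where its 3 arrays ranged from 1.07 to 2.93.

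The sliding clamp and its loader changed least in adenoma as a block: 1 of 5, Rfc3, was overexpressed, and the median log2 fold change was 0.68. By contrast, 4 of 5 were overexpressed in CT26 against colon, with a median of 1.98. PCNA (Pcna), the ring that holds polymerases on DNA and a common marker of proliferation, measured 4.48, 4.29 and 4.496 in small intestine, 4.28 and 4.41 in adjacent tissue, 5.23, 4.93 and 5.16 in adenoma, 4.22, 4.200 and 3.91 in colon, and 6.12, 6.42 and 5.74 in CT26. All 3 adenoma arrays were above all normal arrays, small intestine and adjacent tissue overlapped, and colon was lowest. Its log2 fold change was 0.68 (SE 0.17, limma adjusted p = 0.0128) in adenoma, -0.078 (SE 0.203, limma adjusted p = 0.809) in adjacent tissue against small intestine, -0.31 (SE 0.22, limma adjusted p = 0.427) in colon against small intestine and 1.98 (SE 0.300, limma adjusted p = 0.00116) in CT26 against colon. Of these, the CT26 change passed.

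Rfc3, a subunit of the loader, measured -0.68, -1.100 and -1.05 in small intestine, -0.88 and -0.85 in adjacent tissue, 0.37, 0.27 and 0.404 in adenoma, -0.699, -0.91 and -1.54 in colon, and 1.57, 2.16 and 1.74 in CT26. The normal arrays of all 3 groups overlapped, the adenomas lay above them and CT26 above the adenomas. It was 1.29 (SE 0.17, limma adjusted p = 0.00129) above small intestine and 1.22 (SE 0.14, limma adjusted p = 0.00713) above adjacent tissue, and colon differed from small intestine by -0.104 (SE 0.298, limma adjusted p = 0.854). CT26 was 2.87 (SE 0.34, limma adjusted p = 0.000337) above colon. Rfc2, another subunit, measured 2.46, 2.07 and 2.08 in small intestine, 2.22 and 2.27 in adjacent tissue, 2.66, 2.87 and 2.61 in adenoma, 2.48, 2.27 and 2.23 in colon, and 2.74, 3.87 and 3.59 in CT26. CT26 replicate 1 fell among the adenoma arrays. Rfc2 passed in neither tumor, with 0.51 (SE 0.18, limma adjusted p = 0.0508) in adenoma and 1.07 (SE 0.36, limma adjusted p = 0.0379) in CT26. Rfc4 and Rfc5 passed in CT26 against colon and not in adenoma, with log2 fold changes of 2.17 and 1.82 in CT26 and 0.85 and 0.61 in adenoma.

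Among the polymerase genes, 6 of 8 were overexpressed in adenoma against small intestine and 5 of 8 in CT26 against colon, and the block spanned the widest range of log2 fold changes of the 8 in both comparisons. Pole, the catalytic subunit of polymerase epsilon (probe on chromosome 5, 110766375 to 110766434, mm9, plus strand), measured 1.03, 0.16 and -0.48 in small intestine, 1.36 and 1.83 in adjacent tissue, 3.11, 3.16 and 3.26 in adenoma, 1.28, 1.42 and 0.59 in colon, and 3.86, 4.45 and 4.31 in CT26. The 3 adenoma arrays lay close together, far above all normal arrays and below CT26. Pole had the largest change of any member in adenoma, 2.93 (SE 0.36, limma adjusted p = 0.000891), a fold of 7.64, and was 1.58 (SE 0.19, limma adjusted p = 0.00743) above adjacent tissue. In CT26 it was 3.11 (SE 0.34, limma adjusted p = 0.00024) above colon. A dimmer second Pole probe also passed, with 1.635 in adenoma against small intestine and 2.12 in CT26 against colon. The rank of Pole as the largest change in adenoma thus rests on the brighter probe. Pole2, the second subunit of polymerase epsilon, rose by 2.09 (SE 0.35, limma adjusted p = 0.00292) and 3.102 (SE 0.59, limma adjusted p = 0.00347) in the same comparisons with small intestine and colon.

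Polymerase alpha and primase form 1 complex of 4 proteins, and its 4 genes did not change alike. Pola2, the accessory subunit, measured -2.37, -2.59 and -2.199 in small intestine, -3.48 and -2.703 in adjacent tissue, -2.36, -2.38 and -2.14 in adenoma, -3.38, -3.07 and -3.54 in colon, and -1.598, -0.28 and -0.799 in CT26. Adenoma and small intestine overlapped, and adjacent tissue and colon lay below both. Its log2 fold change was 0.095 (SE 0.18, limma adjusted p = 0.665) in adenoma, -0.71 (SE 0.301, limma adjusted p = 0.177) in adjacent tissue against small intestine, -0.94 (SE 0.24, limma adjusted p = 0.106) in colon against small intestine and 2.44 (SE 0.39, limma adjusted p = 0.00153) in CT26 against colon. It was also the 1 member not well above background on every array, falling short on colon replicate 3. Prim2, the large primase subunit (chromosome 1, 33510733 to 33510792, mm9, minus strand), measured -0.21, -0.52 and -1.07 in small intestine, 0.078 and -0.072 in adjacent tissue, 1.27, 1.09 and 0.903 in adenoma, 0.25, 0.049 and -0.056 in colon, and -0.51, -0.13 and -0.67 in CT26. Adenoma held the 3 highest arrays, and all 3 CT26 arrays lay below every colon array. Prim2 rose by 1.69 (SE 0.25, limma adjusted p = 0.0019) in adenoma. In CT26 it was -0.52 (SE 0.29, limma adjusted p = 0.167) against colon, which did not pass, and -1.53 (SE 0.22, limma adjusted p = 0.000617) against adenoma, where it was the 1 member underexpressed. The partners of both behaved otherwise: Pola1, the catalytic subunit, rose by 1.81 (SE 0.38, limma adjusted p = 0.00771) in adenoma and 3.06 (SE 0.31, limma adjusted p = 0.000148) in CT26, and Prim1, the catalytic primase, by 1.499 (SE 0.32, limma adjusted p = 0.00804) and 2.82 (SE 0.33, limma adjusted p = 0.000328). Of polymerase delta, Pold1 passed in adenoma, 1.22 (SE 0.27, limma adjusted p = 0.00858), and not in CT26, 2.01 (SE 0.497, limma adjusted p = 0.0111), and Pold2 passed in neither.

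**Figure D4:**
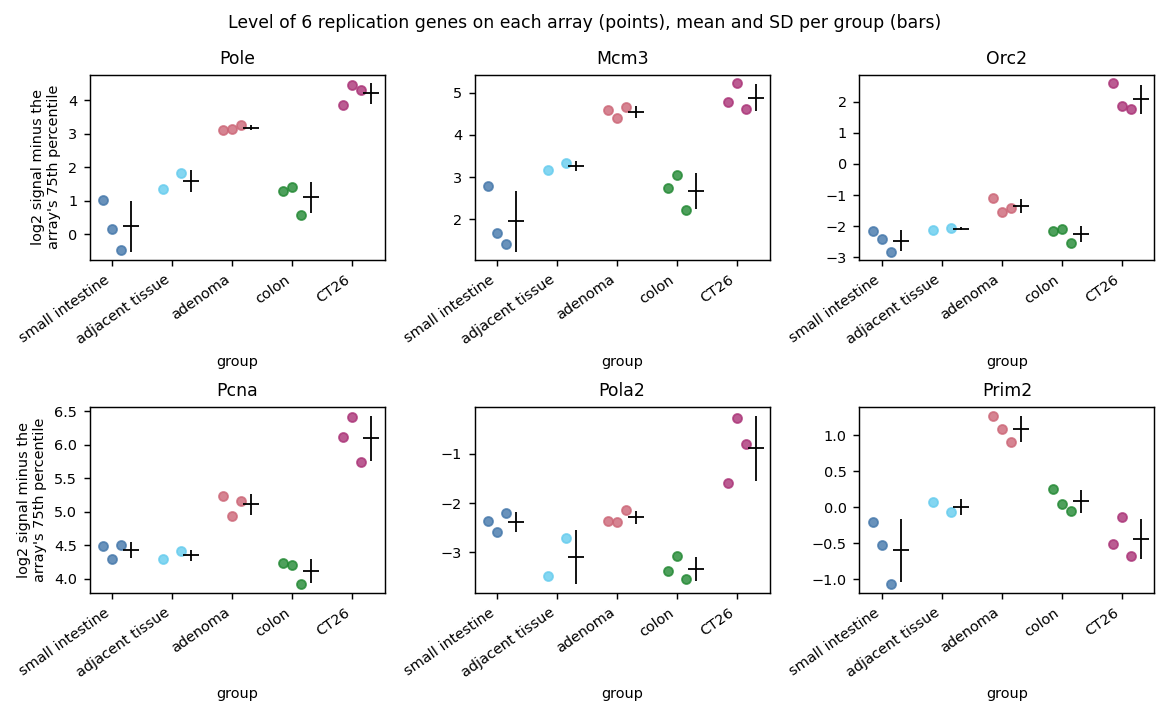
Log2 signal minus the 75th percentile of the array for Pole, Mcm3, Orc2, Pcna, Pola2 and Prim2; colored points are arrays, and the black bars beside them are the group mean and SD (n = 3, n = 2 for adjacent tissue). Orc2 is far higher in CT26 (mean 2.08) than elsewhere, Prim2 is highest in adenoma (mean 1.09), and Pola2 has overlapping small intestine and adenoma points.

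Of the genes for single-strand binding, flap removal and fork protection, 3 of 5 were overexpressed in adenoma and 2 of 5 in CT26 against colon. Tipin, a partner of Timeless in stabilizing forks, measured 1.34, 0.54 and 0.21 in small intestine, 1.72 and 2.03 in adjacent tissue, 2.98, 2.63 and 2.71 in adenoma, 1.66, 1.75 and 1.08 in colon, and 4.39, 4.95 and 4.41 in CT26. Adjacent tissue, adenoma and CT26 formed 3 rising groups with no overlap. Tipin rose by 2.07 (SE 0.301, limma adjusted p = 0.00175) in adenoma and 3.08 (SE 0.33, limma adjusted p = 0.000195) in CT26. Lig1, the ligase that joins Okazaki fragments, measured 3.52, 2.98 and 3.27 in small intestine, 3.64 and 3.58 in adjacent tissue, 4.33, 4.31 and 4.17 in adenoma, 3.46, 3.45 and 3.85 in colon, and 4.06, 5.46 and 5.12 in CT26. CT26 replicate 1 lay below all 3 adenoma arrays. Lig1 passed in neither, at 1.01 (SE 0.19, limma adjusted p = 0.00453) in adenoma and 1.29 (SE 0.41, limma adjusted p = 0.0303) in CT26. Rpa1, which coats single strands, and Fen1, the flap nuclease, passed in adenoma with 1.34 and 1.39, and Rpa2 passed in CT26 with 1.34.

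Both genes of ribonucleotide reductase, the enzyme that makes deoxynucleotides, were overexpressed in both tumors. Rrm2, the regulatory subunit, measured 1.72, 1.52 and 0.91 in small intestine, 2.23 and 2.502 in adjacent tissue, 3.86, 3.79 and 3.61 in adenoma, 1.96, 2.12 and 2.99 in colon, and 5.07, 5.51 and 4.97 in CT26. No adenoma array overlapped a normal array and no CT26 array overlapped an adenoma. It was higher by 2.38 (SE 0.24, limma adjusted p = 0.000415) than in small intestine, 1.39 (SE 0.17, limma adjusted p = 0.00778) than in adjacent tissue, and in CT26 by 2.83 (SE 0.36, limma adjusted p = 0.000527) than in colon. Rrm1, the large subunit, measured 1.903, 1.195 and 0.69 in small intestine, 2.12 and 2.21 in adjacent tissue, 3.38, 3.19 and 3.25 in adenoma, 2.303, 2.19 and 2.52 in colon, and 5.001, 4.88 and 4.56 in CT26. Again the adenomas lay above all normal arrays and CT26 above the adenomas. It was 2.01 (SE 0.303, limma adjusted p = 0.00205) above small intestine, 1.11 (SE 0.15, limma adjusted p = 0.00974) above adjacent tissue, short of the threshold of size, and 2.48 (SE 0.28, limma adjusted p = 0.000274) higher in CT26 than in colon. Both were also overexpressed in CT26 against adenoma, by 1.54 for Rrm1 and 1.42 for Rrm2.

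All 5 genes that copy chromatin and DNA methylation behind the fork were overexpressed in adenoma, with log2 fold changes from 1.42 to 2.12, and 3 of 5 in CT26. Chaf1b, a subunit of the histone chaperone CAF-1, measured 2.25, 1.58 and 0.95 in small intestine, 2.69 and 2.96 in adjacent tissue, 3.71, 3.83 and 3.61 in adenoma, 2.66, 2.32 and 2.58 in colon, and 2.71, 4.47 and 3.74 in CT26. CT26 replicate 1 lay just above the colon arrays and below the adenomas, replicate 3 among the adenomas and replicate 2 above them. Its log2 fold change was 2.12 (SE 0.32, limma adjusted p = 0.00205) in adenoma, 1.11 (SE 0.46, limma adjusted p = 0.0746) in CT26 against colon and -0.077 (SE 0.41, limma adjusted p = 0.885) in CT26 against adenoma. Chaf1a, the large CAF-1 subunit, measured 0.97, -0.044 and -0.25 in small intestine, 1.099 and 1.19 in adjacent tissue, 1.84, 1.82 and 1.87 in adenoma, 0.79, 0.88 and 1.06 in colon, and 3.03, 3.88 and 3.16 in CT26. Unlike Chaf1b, its 3 CT26 arrays were all above the adenomas. It rose by 1.62 (SE 0.32, limma adjusted p = 0.00571) in adenoma and 2.45 (SE 0.32, limma adjusted p = 0.000591) in CT26. Dnmt1, the maintenance DNA methyltransferase, measured -0.28, -0.94 and -1.06 in small intestine, -0.013 and 0.19 in adjacent tissue, 0.56, 0.67 and 0.74 in adenoma, 0.100, -0.39 and 0.29 in colon, and 0.601, 1.604 and 1.19 in CT26. CT26 replicate 1 fell among the adenomas. Dnmt1 passed in adenoma, 1.42 (SE 0.23, limma adjusted p = 0.00296), and not in CT26, 1.13 (SE 0.36, limma adjusted p = 0.0318). Uhrf1, which brings Dnmt1 to newly copied DNA, rose by 2.01 and 1.61, and Hells, a remodeler needed for methylation, by 1.86 and 2.33.

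The 2 tumor comparisons share no array, so their difference could be tested. Of 40 genes, 20 were overexpressed in both, 7 only in adenoma against small intestine (Chaf1b, Dnmt1, Fen1, Mcm6, Pold1, Prim2, Rpa1), 9 only in CT26 against colon (Cdc45, Cdt1, Mcm10, Orc2, Pcna, Pola2, Rfc4, Rfc5, Rpa2) and 4 in neither (Gmnn, Lig1, Pold2, Rfc2). The change was larger in CT26 for 34 of 40, and across the 40 genes, which are not independent replicates, the 2 changes had a Pearson r of 0.24 and a Spearman rho of 0.34. Tested directly in 1 fit of all 5 groups, the change differed for 9 of 40 members, where 32.2% of all names differed: it was larger in CT26 for 8 (16.8% of all names differed that way) and smaller for Prim2 (15.5% of names). The difference was 3.24 (SE 0.38, limma adjusted p = 2.9e-05) for Orc2, 2.34 (SE 0.45, limma adjusted p = 0.0012) for Pola2, 2.01 (SE 0.31, limma adjusted p = 0.000229) for Cdc45 and 1.76 (SE 0.27, limma adjusted p = 0.000257) for Cdt1. For Prim2 it was -2.21 (SE 0.35, limma adjusted p = 0.000293). Orc6, Pcna, Rfc3 and Rfc4 also differed, by 1.297 to 1.58. For Chaf1b, Dnmt1, Fen1, Mcm6, Pold1 and Rpa1, which passed in adenoma alone, the difference itself did not pass.

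**Figure D5:**
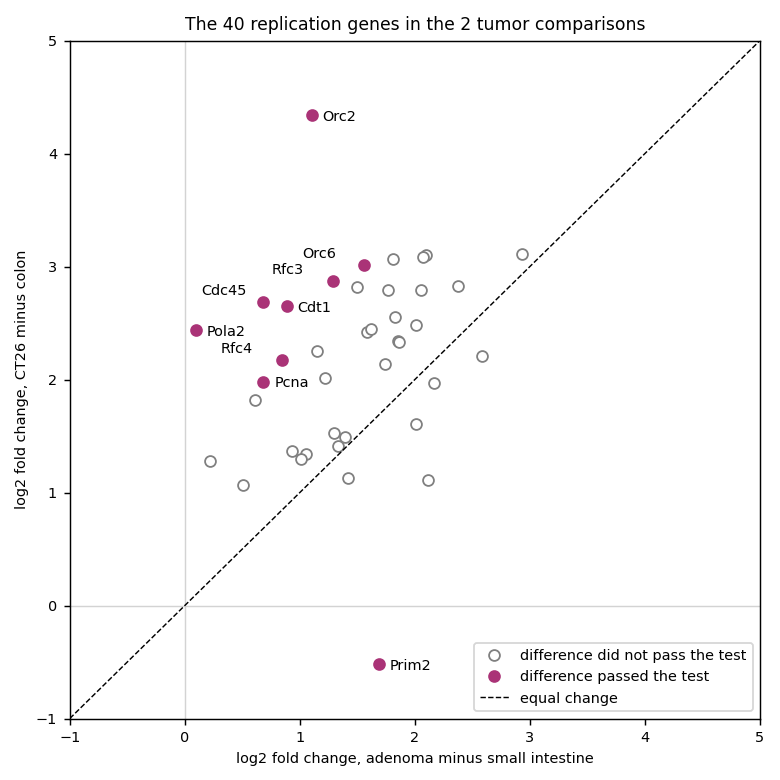
Log2 fold change of each gene in CT26 minus colon against that in adenoma minus small intestine; the dashed line is equal change, filled named points are the 9 genes whose difference passed the test. The other 8 named points lie above the line, Orc2 highest at 4.34, and Prim2 lies below it at 1.69 and -0.52.

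The wider replication machinery was followed through 38 other replication genes. In adenoma against small intestine 10 were overexpressed and 0 underexpressed, with a median log2 fold change of 1.02, and in CT26 against colon 19 were overexpressed and 0 underexpressed, with a median of 1.699. Between adenoma and adjacent tissue 0 of 38 passed, though 23 had an unadjusted p under 0.05 in limma (38.3% of all names did). Timeless, the partner of Tipin, rose by 2.39 (SE 0.31, limma adjusted p = 0.00111) in adenoma and 2.597 (SE 0.34, limma adjusted p = 0.000564) in CT26. Dbf4, which activates the kinase Cdc7, rose by 1.55 (SE 0.26, limma adjusted p = 0.00313) and 3.105 (SE 0.301, limma adjusted p = 0.000129). The others overexpressed in adenoma were Mcm8, Pold3, Clspn, Topbp1, Dscc1, Dut, Nasp and Atad2, by 1.203 to 2.15 on the log2 scale. In small intestine, Clspn exceeded background on 1 of 3 arrays and Mcm8 on 2 of 3, against all 3 adenoma arrays for both. Clspn and Mcm8 thus entered that test through adenoma alone, and their fold changes rest partly on values not well above background. Recql4, a helicase that takes part in initiation, had the largest change of the list in CT26, 4.14 (SE 0.34, limma adjusted p = 5.97e-05), and did not pass in adenoma.

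Regulators of S phase were read from 12 genes, of which Ccne2 was not well above background on any array. In adenoma against small intestine, Ccne1, Cdk2, E2f1, E2f7 and Fbxo5 were overexpressed and Rb1 was underexpressed (11.3% and 11.1% of all names). Of the 11 tested, 7 were higher in adenoma and 4 lower. Ccne1, the cyclin that drives entry into S phase, rose by 2.44 (SE 0.34, limma adjusted p = 0.00147) and E2f1, an activating E2F, by 1.96 (SE 0.302, limma adjusted p = 0.00225). Rb1, the pocket protein that restrains E2F, fell by 1.396 (SE 0.18, limma adjusted p = 0.00116). In CT26 against colon, Ccne1, E2f1, E2f7, Rbl1 and Fbxo5 were overexpressed and 0 regulators were underexpressed (21% and 16.2% of all names). E2f7, a repressive E2F, had the largest rise, 3.39 (SE 0.303, limma adjusted p = 8.53e-05). Of the 11 tested, 9 were higher in CT26 and 2 lower. The lower ones were E2f2 (mean 3.34 in colon and 1.504 in CT26) and Rb1 (2.08 and 0.79), and neither passed.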

How the data were processed

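RNA from 14 samples was labelled with Cy3 and hybridized to Agilent SurePrint G3 mouse arrays, and groups were taken from the sample labels. Per the file headers, the deposited scanner files were made with Feature Extraction 10.7.3.1, and their processed signal is a background-subtracted intensity with no scaling across arrays. A second deposited file holds log2 values that the authors normalized by a method not given in the sources used here, which served as an alternative. Its 28 other per-sample columns and its fold changes and p-values between groups were not used. Control spots and spots flagged as outliers were removed, processed signals were put on the log2 scale and centered on the array's own 75th percentile, and the spots of each probe were averaged. Probe positions are those of the files (mm9), and promoters are those of RefSeq on GRCm38.p6.

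Each of 6 pairs of groups was compared on its own arrays with limma 3.58.1 (R 4.3.3), on probes that were well above background throughout 1 or both groups, with adjustment over all probes tested. The difference between the 2 tumor changes was a contrast in 1 fit of all 5 groups. The scripts were tested on simulated data. Background percentages take the brightest probe of each gene name. The 40 members, their roles and all lists were chosen with earlier results of these data known. Per role, values on every array are given for the members with the largest and smallest change in adenoma against small intestine and in CT26 against colon, and for those that oppose the median direction. The samples were treated as replicates as labelled. The number of arrays, and signal over background, limit the precision. Alternatives were normexp background correction (offset 50), quantile normalization, the authors' table, a joint fit of the 5 groups, inclusion of dim probes, blocks for slide or for replicate number, a trend with intensity, other thresholds, any probe of a gene, and each array left out. Values within slides and the emphasis on colon replicate 3 were added after seeing the data.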

Additional observations from a re-analysis of the deposited data

Results flagged for a closer look

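The change from colon to CT26 differed from the change from small intestine to adenoma for 9 members, in a limma contrast of the 2 differences, in which 32.2% of all gene names differed, so the members did not differ more often than the array as a whole. The difference of log2 changes was 3.24 for Orc2, 2.34 for Pola2, 2.01 for Cdc45, 1.76 for Cdt1, 1.58 for Rfc3, 1.46 for Orc6, 1.33 for Rfc4 and 1.30 for Pcna, all larger in CT26, and -2.21 for Prim2. The CT26 cells differ from the adenomas in strain, in tissue of origin and in growth in culture, which cannot be told apart here.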

How the results depend on the processing

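No member was called underexpressed under any alternative run, except Prim2 between CT26 and adenoma, which was so under all of them, and no member called in the main setting changed sign. Leaving out 1 array at a time gave 11 to 30 members overexpressed in adenoma against small intestine (6.57% to 13% of names), 23 to 34 in CT26 against colon (11.4% to 20.1%), 14 to 22 in CT26 against adenoma (18.3% to 22.1%), and 6 to 11 with a difference between the 2 tumor changes. Of the calls between adenoma and adjacent tissue, 0 remained when any 1 adenoma array was left out (0% to 0.203% of names overexpressed). Adenoma against adjacent tissue gave 0 without a filter on dim probes, 0 in the fit of all 5 groups, 0 with the slide as a block, and 26 at an adjusted p of 0.05 with no minimum fold. CT26 against adenoma gave 8 after quantile normalization, 6 in the authors' table and 26 at the looser threshold (38.5% of names), and the difference of changes gave 5 and 5 in the first 2 of these. The cause of these moves was not tested. Other alternatives kept each of these counts within 1.5 times.

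Pairing by replicate number was checked through the correlations of deviations. These were 0.021, 0.12 and -0.095 between adenoma and small intestine, 0.29 and 0.14 between adjacent tissue and small intestine, 0.18, 0.012 and 0.24 between colon and small intestine, and -0.12 to 0.086 in the other comparisons. The sample titles number the adjacent pieces 2 and 3, unlike their replicate numbers. For adjacent tissue, the check and the block therefore matched arrays of unlike title numbers. They cannot show whether those pieces were paired with other samples. The block moved the median of adjacent tissue against small intestine from 0.71 to 0.501. With the replicate number as a block, 23, 0, 26 and 15 members were overexpressed in adenoma against small intestine, adenoma against adjacent tissue, CT26 against colon and CT26 against adenoma, and 10 members differed between the 2 changes. The 14 arrays, with 2 or 3 to a group, limit which differences can pass. The median SD of a member was 0.44 in small intestine and 0.13 in adenoma. By the sample list, the first is a spread between animals and the second a spread between pieces of the same animal, so they are not comparable as measures of precision.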

Other observations

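The replication genes moved together within the small intestine group. Replicate 1 had the highest value of the 3 arrays for 37 of 40 members (35.3% of all gene names) and replicate 3 the lowest for 31 (29.5% of names), and the median level of the members was 1.59, 1.12 and 0.67 on the 3 arrays. The median of 8 mitosis genes was 2.03, 1.12 and 0.79 on the same arrays, that of 6 crypt base genes was 2.37, 1.19 and 0.70, and that of 10 enterocyte genes was 5.78, 7.61 and 7.79. Without replicate 1, 30 members were overexpressed in adenoma (13% of names). In CT26, replicate 2 was highest for 32 of 40 members (30.2% of names), and in adjacent tissue replicate 2 was the higher for 34 (45.6% of names).

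There were 8 members with more than 1 probe. Between CT26 and adenoma, a second probe passed where the brighter one did not for Mcm3 (1.77 and 0.32) and Pole (1.30 and 1.04), and the brighter probe alone passed for Rfc4 (1.55 and 1.18). In adenoma against small intestine, no second probe of a member changed a call, and in adenoma against adjacent tissue the brighter probe alone passed for Cdc6 and Pole.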
